A study of Mus musculus with 6 samples.

Results

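The lysosomal genes described here are 40 mouse genes that encode hydrolases of the lysosomal lumen, proteins of the lysosomal membrane and a few factors that act on them, taken by symbol from a fixed list. All 40 were found among the 22048 genes of the table, and 39 of them were among the 13952 genes with enough reads to be tested. The lysosome is the acidic compartment in which cells break down proteins, sugar chains, sulfated glycans and lipids that arrive by endocytosis and autophagy. Its soluble enzymes are carried there by mannose 6-phosphate receptors and related sorting receptors, and its limiting membrane is protected by heavily glycosylated proteins. Tfeb, a basic helix-loop-helix transcription factor, is known to bind a short element with the core CACGTG near the start of many of these genes, and loss of single members causes lysosomal storage diseases, many of which affect neurons and glia.

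RNA-Seq was run on neural stem/progenitor cells (NSC/NPCs) from the fetal hypothalamus, grown as neurospheres, which are floating clusters kept in medium with B27, EGF and bFGF, and harvested at first passage. Pregnant C57BL/6 dams, 8 weeks old, were given estradiol valerate by gavage at 100 μg/kg/d (HE) or the corn oil solvent alone (NC) between E5.5 and E11.5, and cells were taken from male fetuses at E14.5. The sample labels call the NC samples untreated. There were 3 HE and 3 NC samples, each of cells from 2 mice.

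The total of reads on genes ranged from 16078675 in HE3 to 19137059 in NC2. Progenitor genes were expressed in every sample, with Sox2 at 97.3 to 209 RPKM and Nes at 154 to 247 RPKM, where RPKM is the read count scaled to gene length and to the sample's total reads on genes. In a principal component analysis of all tested genes the first component held 60.8% of the variance, and HE3 lay at 70.4 on it while the other samples lay between -34.5 and 9.56. Without HE3 the log2 fold change of 28 of the 39 tested lysosomal genes lay nearer to 0, and it moved by over 1.5 times for 23, so values without HE3 are given beside the results. No gene of the table passed an adjusted p of 0.05 with a log2 fold change of 1 either way by limma with Benjamini-Hochberg adjustment, and limma's voom on the read counts also called 0 genes. The paper, which used DESeq2 with the same cutoffs, did report differentially expressed mRNAs, so the count of 0 holds for these limma fits. At an unadjusted p under 0.05, 1647 genes were lower and 1211 higher in HE, and lysosomal genes past this looser criterion are given with their adjusted p below.

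The Tfeb core was found in a larger share of the promoters of the list than of all promoters, and stretches that hold it are shown for the genes to which the values below return. In RefSeq windows from 250 bases before to 50 bases after a start (build GRCm38.p6), CACGTG, which reads the same on both strands, was found for 14 of the 36 lysosomal genes with a window, or 38.9%, and for 8.09% of 27025 genes. TCACGTG or its reverse complement CACGTGA, which contain that core, was found for 12 of the 36, or 33.3%, and for 4.29% of all genes. The palindrome TCACGTGA, which contains both, was found for 5 of the 36, or 13.9%, and for 1.12% of all genes. Asah1, Npc1, Ctsb and Ctsh had no window. A match describes letters and not binding, and other basic helix-loop-helix proteins are known to bind the same core. Naglu and Gaa are shown as genes lower in HE, Glb1 as a gene whose mean was higher in HE, Ctsd and Lamp1 for their high levels, and Mcoln1 as the calcium channel of the lysosomal membrane. Each stretch lies before the start and inside no annotated gene, runs 5′ to 3′ along the gene, and has the core in capitals. The coordinates are chr11:101070001-101070046 (plus strand) for Naglu, chr11:119267803-119267848 (plus) for Gaa, chr9:114401010-114401055 (plus) for Glb1, chr7:142387900-142387945 (minus) for Ctsd, chr8:13159080-13159160 (plus) for Lamp1 and chr8:3500428-3500499 (plus) for Mcoln1.
Naglu: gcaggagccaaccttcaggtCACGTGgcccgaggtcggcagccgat
Gaa: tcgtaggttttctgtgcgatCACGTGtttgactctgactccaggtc
Glb1: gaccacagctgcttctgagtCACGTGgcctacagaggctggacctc
Ctsd: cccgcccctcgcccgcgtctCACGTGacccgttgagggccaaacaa
Lamp1: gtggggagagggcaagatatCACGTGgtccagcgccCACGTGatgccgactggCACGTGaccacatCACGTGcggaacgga
Mcoln1: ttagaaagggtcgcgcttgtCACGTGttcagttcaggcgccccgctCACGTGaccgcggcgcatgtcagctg

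The copies shown began 73 bases before the start of Naglu, 140 before that of Gaa, 48 before that of Glb1 and 98 before that of Ctsd, which holds another copy 245 bases before its start. Lamp1 held 4 copies, at 61, 45, 28 and 15 bases before its start, and Mcoln1 held 2, at 71 and 45 bases. Of the tested genes with the core, 11 of 14 had a lower mean log2 level in HE, and their median log2 fold change was -0.34. Of those with a window but no core, 17 of 21 were lower, with a median of -0.17. The ranges overlapped widely, from -0.89 to 0.33 with the core and from -0.62 to 0.19 without it, and the difference between these 2 groups was not tested.

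As a whole the list lay lower in HE than in NC. Of the 39 tested genes, 30 had a lower and 9 a higher mean log2 level in HE. Of all 13952 tested genes 7843 were lower and 6109 higher. The median log2 fold change of the list was -0.23 beside -0.06 for all tested genes. At an unadjusted p under 0.05, 8 genes were lower, or 20.5% of the list beside 11.8% of all tested genes, and 0 were higher, beside 8.68% of all tested genes. All 3 HE values lay below all 3 NC values for 16 genes, or 41% of the list beside 17.9% of all tested genes, and above them for 0, beside 14.8%. The lowest adjusted p in the list was 0.195 by limma with Benjamini-Hochberg adjustment, and 0 of the 39 passed the call rule beside 0% of all tested genes. In bulk samples fewer cells of a type and less RNA per cell cannot be told apart. The count of 8 was 7 without HE3, 5 without NC1 and 4 without NC2. The share of all tested genes lower at that p was 10.5%, 5.23% and 6.96% in these 3 fits. The median of the list became -0.17 without HE3, where that of all tested genes was 0.00.

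**Figure D1:**
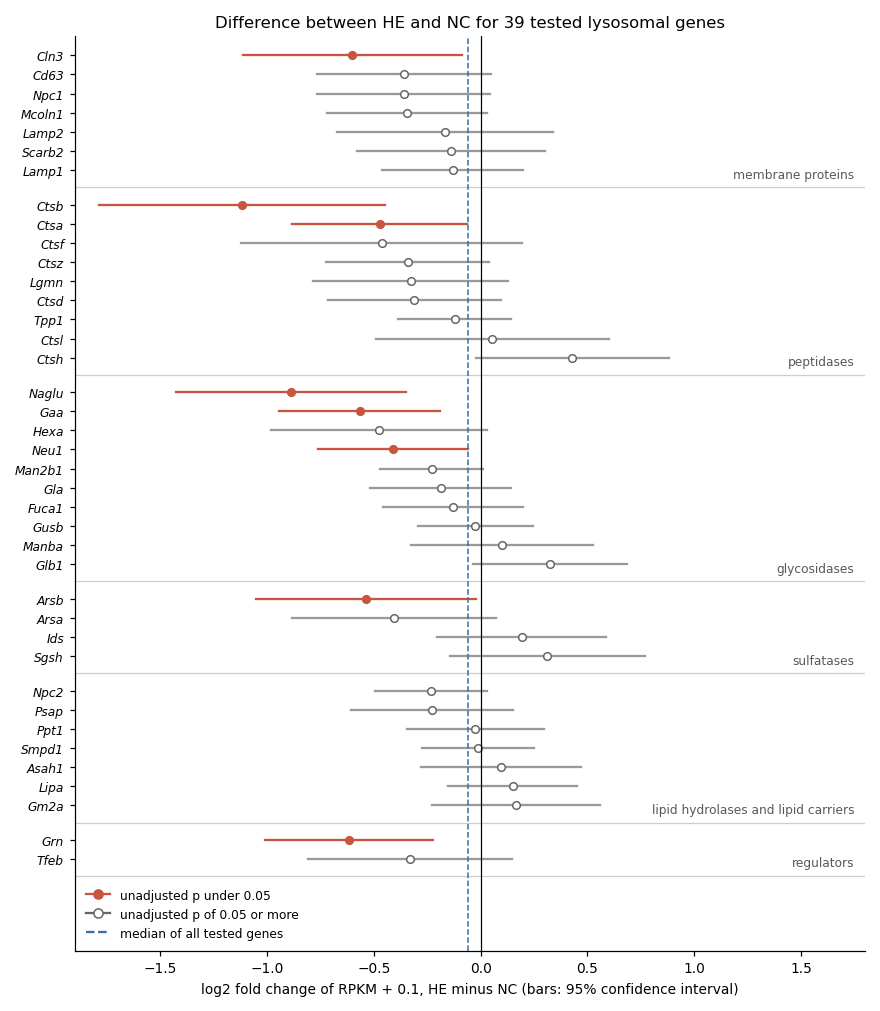
Log2 fold change of RPKM + 0.1 between HE and NC (x axis) for the 39 tested lysosomal genes by role, with 95% confidence intervals from limma and the median of all tested genes as a dashed line. The 8 filled points are lower in HE at an unadjusted p under 0.05, led by Ctsb at -1.12 and Naglu at -0.89, and no interval lies wholly above 0.

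The shift was not even among samples. The median deviation of the list from the NC mean, on the log2 scale, was 0.00 in NC1, 0.11 in NC2 and -0.08 in NC3, and it was -0.09 in HE1, -0.22 in HE2 and -0.39 in HE3. HE1 lay just below NC3, and HE3 lay lowest. For all tested genes together the median deviation of HE3 was -0.17, and HE3 held the lowest value for 23 of the 39 genes, or 59.0%, beside 44.4% of all tested genes. The coefficient of variation was larger in HE for 26 of the 39 genes, with a median of 17.8% in HE and 10.2% in NC, and it was larger in HE for 69.5% of all tested genes.

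Transcripts of 5 genes made up most of the list's RNA. The 40 genes summed to 3764, 4341 and 3530 RPKM in NC1, NC2 and NC3 and to 3540, 3128 and 2829 RPKM in HE1, HE2 and HE3, so that the groups touched between NC3 and HE1. As a share of the RPKM of all genes, the sums were 1.08%, 1.27% and 0.998% in NC and 0.963%, 0.865% and 0.686% in HE, and these did not overlap. The RPKM of all genes itself summed to 340524 to 353657 in NC and to 361790 to 412361 in HE, which lowers the share in HE. In every sample Ctsd was the most abundant and Psap the next, and the 5 most abundant genes held 62.5% to 66.8% of the sum. Over all samples 8 genes had a mean above 100 RPKM, 22 lay between 10 and 100 RPKM, and 10 lay below 10 RPKM. The tested genes had between 94 and 44409 reads in a sample.

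**Figure D2:**
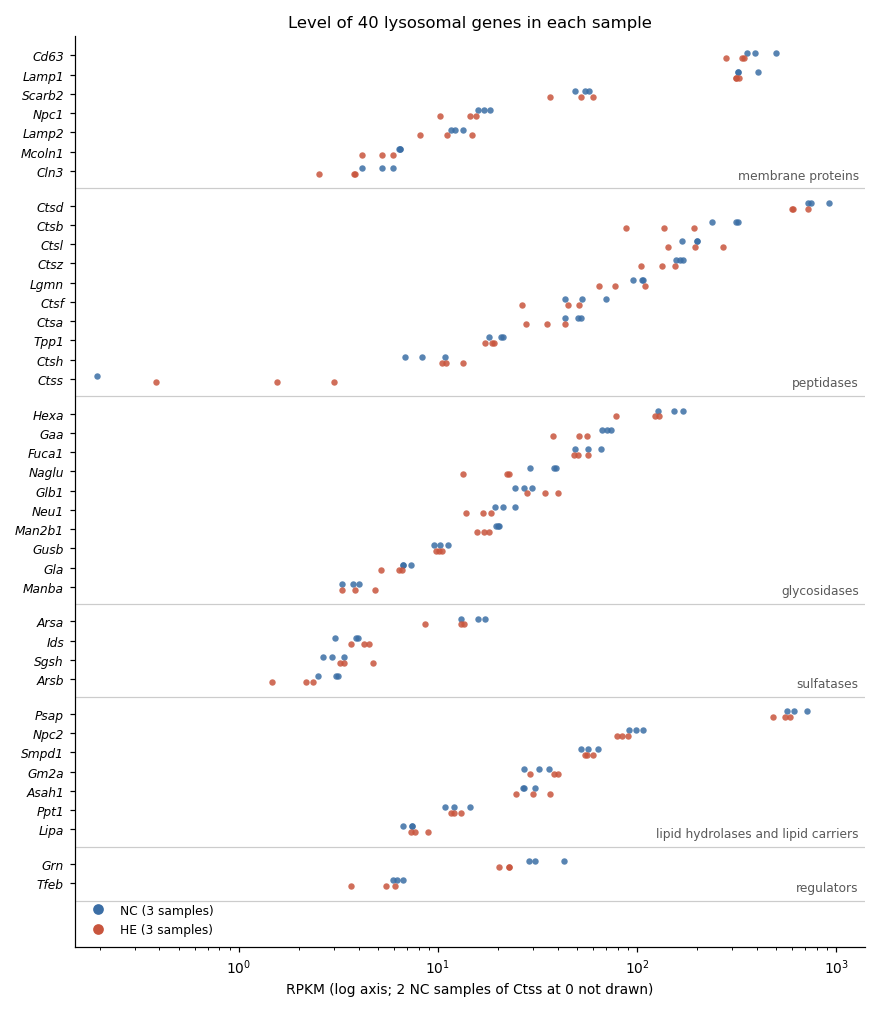
RPKM of the 40 lysosomal genes in each of the 3 NC and 3 HE samples (log x axis), by role and in descending order of the NC mean. Levels ran from a few RPKM for sulfatases such as Arsb to 597 to 921 RPKM for Ctsd, and Ctss was at 0 in NC1 and NC2.

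The 7 membrane proteins were all lower in HE on average. Their median log2 fold change was -0.34. At an unadjusted p under 0.05, 1 of the 7 was lower, or 14.3%, near the 11.8% of all tested genes. For 4 of the 7 all HE values lay below all NC values, as for 17.9% of all tested genes. Without HE3 their median was -0.18. Cd63, a tetraspanin of late endosomes and lysosomes, was at 390, 497 and 356 RPKM in NC1, NC2 and NC3 and at 338, 280 and 344 RPKM in HE1, HE2 and HE3. The groups were just apart, at a log2 fold change of -0.36 ± 0.17 (SE, n = 3 a group). Lamp1, a heavily glycosylated protein of the lysosomal membrane, was at 323, 404 and 324 RPKM in NC and at 326, 315 and 313 RPKM in HE. Its values overlapped, since only NC2 stood above the rest, and the 95% interval of its log2 fold change ran from -0.46 to 0.20.

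Cln3, the membrane protein lost in juvenile neuronal ceroid lipofuscinosis, was lower in HE. It was at 5.24, 5.97 and 4.18 RPKM in NC and at 3.82, 3.77 and 2.53 RPKM in HE, with no overlap between the groups. Its log2 fold change was -0.60 ± 0.22 (SE) with an adjusted p of 0.214 by limma, and its gene shares 900 bases with Apobr, which was at 0.0987 to 0.456 RPKM. Mcoln1 had 6.41 to 6.50 RPKM in NC and 4.17 to 5.98 in HE, and Npc1, which exports cholesterol, had 15.8 to 18.2 RPKM in NC and 10.3 to 15.5 in HE. Both were apart between groups at log2 fold changes of -0.34 and -0.36, without reaching an unadjusted p of 0.05, and without HE3 these were -0.20 and -0.18. Lamp2 and Scarb2, the receptor that carries beta-glucocerebrosidase, overlapped between groups at -0.17 and -0.14, and without HE3 both changed sign, to 0.05 and 0.06.

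The peptidases held the gene with the largest difference of the list. Among 9 tested peptidases 7 were lower and 2 higher in HE on average. The median of their log2 fold changes was -0.33, and it was -0.17 without HE3. Ctsb (chr14:63122462-63145923, GRCm38.p6), a cysteine cathepsin with both endopeptidase and dipeptide-removing activity, was at 323, 314 and 237 RPKM in NC1, NC2 and NC3. It was at 194, 137 and 88.5 RPKM in HE1, HE2 and HE3, below every NC sample, and the HE mean was 48.0% of the NC mean. Its log2 fold change was -1.12 ± 0.29 (SE) with a 95% interval from -1.79 to -0.45 and an adjusted p of 0.195 by limma, and it was -0.82 without HE3. The gene shares 774 bases with Fdft1, a cholesterol synthesis enzyme, which was at 82.6 to 92.9 RPKM in NC and 60.5 to 86.5 RPKM in HE.

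Ctsl, a related cysteine cathepsin, did not separate the groups as Ctsb did. It was at 201, 201 and 168 RPKM in NC and at 271, 196 and 143 RPKM in HE, with overlapping groups and a log2 fold change of 0.05, whose 95% interval ran from -0.49 to 0.60, or 0.28 without HE3. The ratio of Ctsb to Ctsl in RPKM, chosen after the values were seen, was 1.61, 1.57 and 1.41 in NC and 0.718, 0.699 and 0.618 in HE. Ctsb was the fifth most abundant gene of the list in every NC sample and Ctsl in every HE sample, where Ctsb ranked 6 in HE1 and HE2 and 7 in HE3. Within the sum of the 40 genes, Ctsb made up 6.72% to 8.57% in NC and 3.13% to 5.49% in HE.

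**Figure D3:**
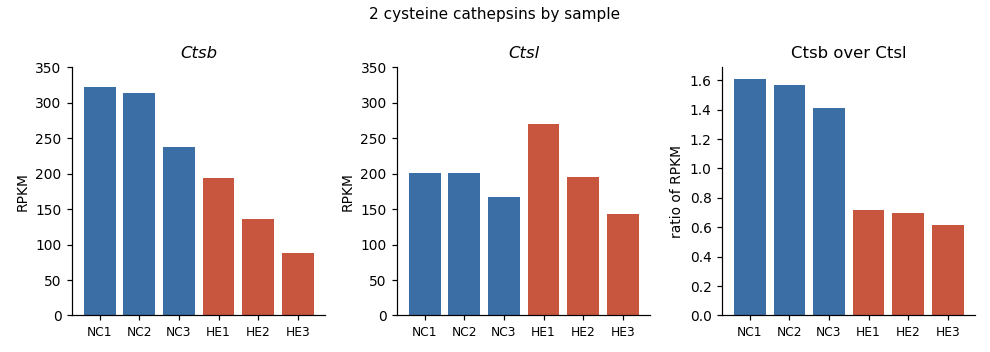
RPKM of Ctsb and Ctsl and the ratio of the 2 in each sample (bars, NC blue, HE red). Ctsb ran from 237 to 323 RPKM in NC and from 88.5 to 194 RPKM in HE, Ctsl overlapped between groups, and the ratio was above 1.41 in NC and below 0.72 in HE.

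Ctsd, the main aspartic protease of the lysosome, was the most abundant gene of the list. It was at 725, 921 and 752 RPKM in NC and at 724, 597 and 608 RPKM in HE. The groups were apart by less than 1 RPKM between NC1 and HE1, and the log2 fold change was -0.31 with a 95% interval from -0.71 to 0.09. Ctsa, the serine carboxypeptidase that also protects Glb1 and Neu1 in a complex, was at 50.3, 52.2 and 43.7 RPKM in NC and at 43.4, 35.6 and 27.8 RPKM in HE. All HE values lay below those of NC, with NC3 and HE1 nearly equal, and the log2 fold change was -0.47 ± 0.17 (SE) with an adjusted p of 0.217 by limma, or -0.31 without HE3. Ctsa shares 1515 bases with Pltp and 725 bases with Neurl2, at 8.13 to 19.2 and 1.84 to 8.14 RPKM.

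Ctsh, an aminopeptidase, had the largest positive fold change of the tested genes, at 6.83, 10.9 and 8.37 RPKM in NC and 13.3, 10.5 and 11.0 RPKM in HE. Only NC2 reached into the HE range, and the log2 fold change was 0.43 ± 0.19 (SE) with a 95% interval from -0.02 to 0.88. The other peptidases were Ctsz, a carboxypeptidase that was apart between groups at 157 to 171 RPKM in NC and 104 to 156 RPKM in HE, and Ctsf, Lgmn and Tpp1, whose groups overlapped at log2 fold changes of -0.46, -0.33 and -0.12. Without HE3 the log2 fold change of Ctsz, -0.34 with it, was -0.19, and those of Ctsf and Lgmn were -0.17 and -0.16. Ctss, the cathepsin typical of microglia and macrophages, was below the filter with 0, 0 and 5 reads in NC and 38, 10 and 66 reads in HE. These reads equal 0, 0 and 0.194 RPKM in NC and 1.56, 0.386 and 3.02 RPKM in HE, and every HE sample lay above every NC sample.

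The glycosidases, which take sugar chains apart residue by residue, held 3 of the 8 genes lower at an unadjusted p under 0.05. These were 30% of the 10 tested glycosidases, beside 11.8% of all tested genes. Of 10 tested, 8 were lower and 2 higher in HE on average, and the median was -0.21 on the log2 scale, or -0.22 without HE3. Naglu, which removes N-acetylglucosamine from heparan sulfate and is deficient in Sanfilippo syndrome type B, was at 39.1, 38.3 and 29.2 RPKM in NC and at 22.8, 22.3 and 13.5 RPKM in HE. The HE mean was 55.0% of the NC mean and all HE values lay below NC, at a log2 fold change of -0.89 ± 0.23 (SE) and an adjusted p of 0.195 by limma, or -0.64 without HE3. Gaa, the acid alpha-glucosidase that degrades glycogen and is deficient in Pompe disease, was at 70.7, 74.1 and 67.1 RPKM in NC and at 50.9, 56.4 and 37.7 RPKM in HE. The 3 NC values were close together and all above HE, at a log2 fold change of -0.57 ± 0.16 (SE) and an adjusted p of 0.195 by limma.

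Neu1, the lysosomal sialidase, was at 19.5, 24.5 and 21.3 RPKM in NC and at 16.9, 18.6 and 13.8 RPKM in HE. Its groups were apart at a log2 fold change of -0.41 ± 0.15 (SE) with an adjusted p of 0.215 by limma. Glb1, the acid beta-galactosidase, went the other way, at 27.1, 24.5 and 29.8 RPKM in NC and 34.7, 28.2 and 40.02 RPKM in HE. Only NC3 lay above the lowest HE value, and the log2 fold change was 0.33 ± 0.15 (SE) with a 95% interval from -0.04 to 0.69, or 0.21 without HE3. The ratio of Naglu to Glb1, chosen after the values were seen, was 1.44, 1.56 and 0.978 in NC and 0.657, 0.792 and 0.336 in HE. Naglu and Glb1 each carry 1 copy of the core in the stretches shown, and whether the core relates to these values was not tested. Glb1 shares 10107 bases with Tmppe, which was at 0.855 to 1.67 RPKM.

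**Figure D4:**
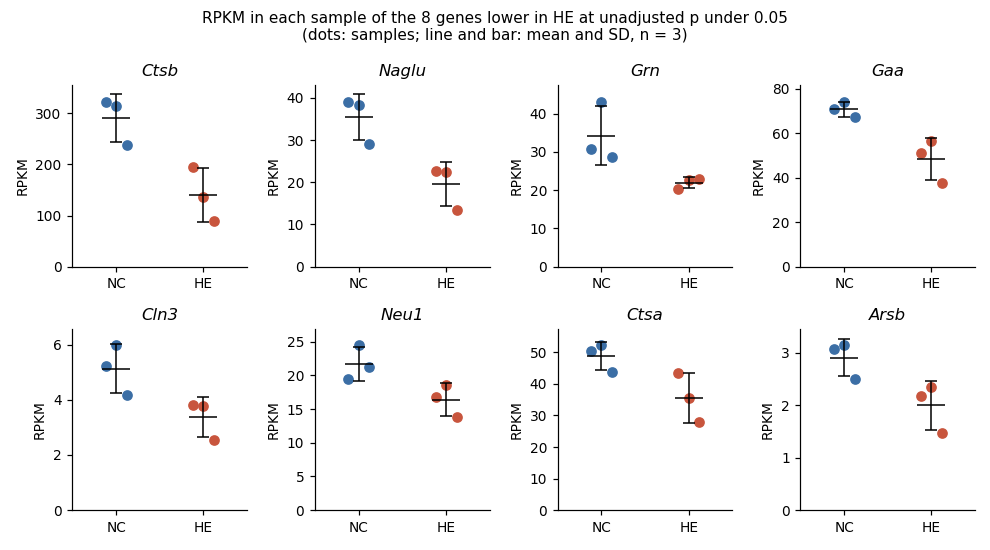
RPKM in each sample (dots) with the mean and SD (n = 3) of the 8 lysosomal genes lower in HE at an unadjusted p under 0.05, on axes that start at 0. In each gene the 3 HE values lie below the 3 NC values, and HE3 is the lowest HE sample in all but Grn.

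The other glycosidases showed smaller differences. Hexa, the alpha subunit of beta-hexosaminidase A, was at 127 to 170 RPKM in NC and 78.4 to 128 RPKM in HE, overlapping only through NC3 and HE1, at a log2 fold change of -0.47, or -0.25 without HE3. Man2b1, the acid alpha-mannosidase, was apart at 19.6 to 20.4 RPKM in NC and 15.8 to 18.2 RPKM in HE, and Gla, the alpha-galactosidase, was apart at 6.66 to 7.34 and 5.20 to 6.63 RPKM. Fuca1, Gusb and Manba overlapped at log2 fold changes of -0.13, -0.03 and 0.10, and that of Fuca1 was -0.20 without HE3.

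The sulfatases did not share a direction, with 2 lower and 2 higher in HE on average. Arsb, which removes sulfate from dermatan and chondroitin sulfate, was at 3.07, 3.14 and 2.50 RPKM in NC and at 2.18, 2.35 and 1.47 RPKM in HE. Its groups were apart at a log2 fold change of -0.54 ± 0.22 (SE) with an adjusted p of 0.234 by limma, or -0.34 without HE3, where it had 94 reads. Sgsh, the heparan N-sulfatase, was at 3.39, 2.65 and 2.95 RPKM in NC and at 3.39, 3.24 and 4.72 RPKM in HE. Its groups overlapped at a log2 fold change of 0.31 ± 0.19 (SE), or 0.15 without HE3, and its gene shares 1891 bases with Card14, which was at 0.0113 to 0.0849 RPKM. Arsa, which acts on sulfatide, overlapped at 13.1 to 17.2 RPKM in NC and 8.59 to 13.5 RPKM in HE, at a log2 fold change of -0.41, or -0.20 without HE3, and Ids, the iduronate sulfatase, overlapped at 3.03 to 3.99 and 3.68 to 4.51 RPKM. Naglu and Sgsh act on the same substrate, heparan sulfate, and their log2 fold changes were -0.89 and 0.31.

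Genes of lipid breakdown had the median nearest to 0 among the groups by role, at -0.01 on the log2 scale, which turned to 0.05 under median-of-ratios scaling and to 0.07 without NC2. Of these 7 genes 4 were lower and 3 higher in HE on average. None of them passed an unadjusted p of 0.05, beside 11.8% lower and 8.68% higher among all tested genes. Psap, the precursor of the saposins that present sphingolipids to their hydrolases, was at 615, 717 and 569 RPKM in NC and at 553, 585 and 482 RPKM in HE. The groups overlapped through NC3 and HE2, and the 95% interval of the log2 fold change of -0.23 ran from -0.61 to 0.15, and it was -0.15 without HE3. Npc2, which hands cholesterol to Npc1, was apart at 91.4 to 107 RPKM in NC and 79.1 to 90.0 RPKM in HE, at a log2 fold change of -0.23. The acid sphingomyelinase Smpd1 lay at 52.5 to 63.6 RPKM in NC and 55.0 to 60.0 RPKM in HE, with a 95% interval of the log2 fold change from -0.27 to 0.25. Asah1, Lipa, Ppt1 and Gm2a overlapped at log2 fold changes between -0.02 and 0.16, or between -0.07 and 0.31 without HE3.

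Of the regulators, Grn was lower in HE. Grn, the progranulin precursor whose loss causes frontotemporal dementia or ceroid lipofuscinosis, was at 30.8, 43.1 and 28.7 RPKM in NC and at 20.2, 22.8 and 22.9 RPKM in HE. The HE samples lay close together below all NC samples, at 64.2% of the NC mean, a log2 fold change of -0.62 ± 0.17 (SE) and an adjusted p of 0.195 by limma. Without HE3 the log2 fold change of Grn was -0.65. Tfeb itself was at 5.98 to 6.67 RPKM in NC and at 6.10, 5.52 and 3.66 RPKM in HE, so that HE1 lay within the NC range, and its log2 fold change was -0.33 with a 95% interval from -0.81 to 0.14, or -0.12 without HE3.

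Ctsb, Naglu, Grn and Gaa stayed lower at an unadjusted p under 0.05 in all 13 other settings tried. Over these settings the log2 fold change ranged from -1.39 to -0.82 for Ctsb, from -1.02 to -0.64 for Naglu, from -0.73 to -0.44 for Grn and from -0.69 to -0.38 for Gaa. Cln3, Ctsa, Neu1 and Arsb each missed an unadjusted p of 0.05 in at least 1 of these settings, and all 4 missed it without NC2. The settings refit the same samples, and Ctsb, Naglu, Grn and Gaa had the lowest p of the list, so their staying lower is no independent support. How many of all tested genes stayed past that p was not counted. The lowest adjusted p of the list by limma was 0.502 without NC1 and 0.420 without NC2.

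Markers of other cell types differed between the same samples, and their part in the values above was not tested. Of 18 microglia and macrophage markers 9 could be tested, 7 of these were higher in HE on average, and 5 were higher at an unadjusted p under 0.05, or 55.6% beside 8.68% of all tested genes. A marker near 0 reads in NC can pass the filter through the 3 HE samples alone, which favors higher values among those tested. The median log2 fold change of the tested markers was 1.27, and it was 0.22 over those with at least 10 reads in every sample. The reads of C1qa, a complement gene of microglia, were 0, 0 and 1 in NC and 18, 5 and 53 in HE, and those of Lyz2, a lysozyme of myeloid cells, were 18, 6 and 33 in NC and 214, 72 and 518 in HE. C1qa and Trem2 were at 0 reads in NC1 and NC2, and no marker was at 0 in all samples. The summed level of the 18 markers was 6.32 to 10.4 RPKM in NC and 9.49 to 43.0 RPKM in HE, with HE2 inside the NC range. Csf1r and P2ry12 overlapped between groups, at 14 to 18 and 13 to 16 reads in NC and 12 to 23 and 6 to 21 reads in HE. Ctss, below the filter, also had more reads in HE, and Grn, Ctsb and Cd68, which myeloid cells also express, were lower. These 4 genes were picked with their values in view, and their relation to the markers was not tested. Of 9 tested mesenchymal markers 8 were higher in HE on average and 3 at an unadjusted p under 0.05, or 33.3% beside the same 8.68%, with sums of 64.9 to 163 RPKM in NC and 106 to 233 RPKM in HE. Of 10 endothelial markers 5 fell below the filter. Among the 5 tested 3 were higher in HE on average and 2 at an unadjusted p under 0.05, or 40% beside the same 8.68%. Their median log2 fold change was 0.55, also over those with at least 10 reads in every sample. The sums of the 10 were low, at 3.01 to 4.18 RPKM in NC and 4.96 to 6.37 RPKM in HE. The median log2 fold change of the 10 astrocyte markers was -0.24, with 0 lower and 2 higher (20%) at an unadjusted p under 0.05. Their sums were 1626, 1942 and 1559 RPKM in NC1, NC2 and NC3 and 1600, 1282 and 1129 RPKM in HE1, HE2 and HE3. In these sums, as in those of the 40 genes, NC2 was highest and HE3 lowest. The sums of 14 progenitor markers ran otherwise, at 3425, 2950 and 3650 RPKM in NC1, NC2 and NC3 and 3302, 2926 and 4638 RPKM in HE1, HE2 and HE3. Those of 10 neuron markers were 78.6, 47.4 and 58.9 RPKM in NC and 61.8, 54.0 and 69.9 RPKM in HE. Median log2 fold changes were -0.14 for progenitor and -0.13 for neuron markers. At an unadjusted p under 0.05, 1 of the 14 progenitor markers was lower (7.14%) and 2 were higher (14.3%). Of 9 tested neuron markers 0 were lower and 2 higher (22.2%) at that p. Among all tested genes 11.8% were lower and 8.68% higher. The 9 tested oligodendrocyte lineage markers had a median of -0.32, which was 0.07 without HE3, and 0 were past an unadjusted p of 0.05 either way.

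**Figure D5:**
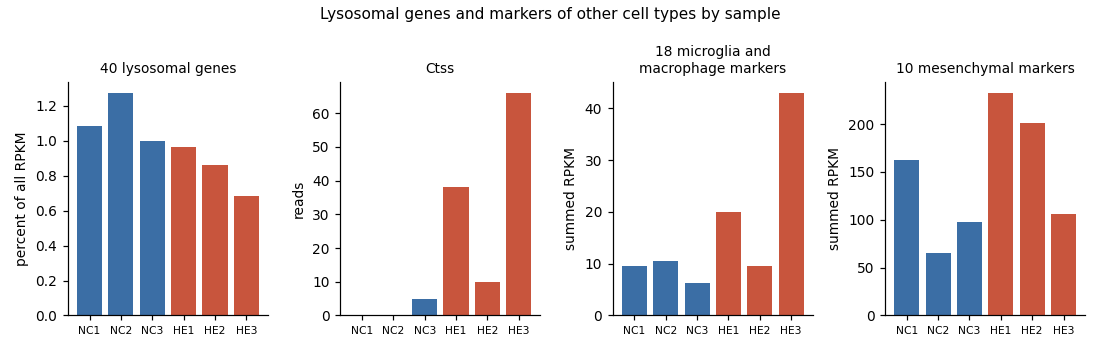
Share of the 40 lysosomal genes in all RPKM, reads of Ctss, and summed RPKM of 18 microglia and macrophage markers and 10 mesenchymal markers in each sample (bars, NC blue, HE red). The lysosomal share was 0.998% to 1.27% in NC and 0.686% to 0.963% in HE, while Ctss had at most 5 reads in NC and 10 to 66 in HE. The RPKM of all genes, by which the share is divided, was higher in every HE sample than in any NC sample.

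Beyond the 40 genes, 142 further genes of lysosome function were examined, of which 134 were tested. Their median was -0.06 on the log2 scale, as for all tested genes, and 24 were lower and 7 higher at an unadjusted p under 0.05, or 17.9% and 5.22% beside 11.8% and 8.68% of all tested genes. Counts of lower and higher genes in the lists that follow are at this same p. The subunits of the V-ATPase, the proton pump that acidifies the lysosome, had a median of -0.01 over 19 tested, with 2 lower (10.5%) and 0 higher. These were Tcirg1 at 37.1, 40.8 and 25.9 RPKM in NC and 23.6, 23.4 and 14.7 RPKM in HE, and Atp6v1b2, at log2 fold changes of -0.76 and -0.31. Of 33 other hydrolases 6 were lower (18.2%) and 4 higher (12.1%), with a median of -0.08. The phospholipase-like Plbd2 was at 17.7, 17.2 and 16.9 RPKM in NC and 11.4, 11.1 and 8.75 RPKM in HE, and the collagen-degrading Ctsk was at 2.96, 1.31 and 2.79 RPKM in NC and 12.3, 8.81 and 5.43 RPKM in HE. Both were apart between groups, in opposite directions, at log2 fold changes of -0.73 and 1.87, and Siae at 0.56 and Ctsw at -1.07 completed the 4 with the lowest p.

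Other lysosomal membrane proteins and transporters had the median nearest to that of the 40 genes, at -0.25, with 4 lower (14.3%) and 1 higher (3.57%) among 28 tested at an unadjusted p under 0.05. Cd68, Abca2, Tpcn1, a two-pore cation channel, and Clcn6, a chloride transporter, had groups apart at log2 fold changes of -0.93, -0.92, -0.78 and -0.61. Among 24 genes of mannose 6-phosphate tagging and sorting 5 were lower (20.8%) and 1 higher (4.17%), with a median of -0.07. The sorting receptor Sorl1 was at 17.6, 21.3 and 17.7 RPKM in NC and 10.7, 9.81 and 6.72 RPKM in HE, with the groups apart, at a log2 fold change of -1.07, and Sort1, Cln8 and Ap3m1 were at -0.47, -0.73 and 0.50. The receptor M6pr itself was at 32.3 to 34.2 RPKM in NC and 35.2 to 35.9 RPKM in HE, at a log2 fold change of 0.10. Genes of nutrient sensing at the lysosome had 5 lower (27.8%) and 0 higher of 18, with a median of -0.03, and Flcn, Tsc1, Tsc2 and Fnip2 lay between -0.63 and -0.42. Among Tfeb relatives and repressors 5 of 7 were lower on average, with a median of -0.20, and 1 was lower at an unadjusted p under 0.05 (14.3%). This was Tfe3, at 5.42 to 6.17 RPKM in NC and 3.61 to 4.66 RPKM in HE. Among 5 tested cathepsin inhibitors 1 was lower and 1 higher at that p (20% each). Cst6 was higher at a log2 fold change of 0.86 and Serpina3n lower at -0.99 with overlapping groups. None of these genes had an adjusted p below 0.195 by limma with Benjamini-Hochberg adjustment.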

How the data were processed

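RNA-Seq covered 3 NC and 3 HE samples, each of cells from 2 mice. The samples were harvested separately, and p-values measure the spread between them. The dams and litters of the mice are not given, so samples of a group may share a dam. The authors filtered reads, aligned them with TopHat2 to mm10 (submitters' notes name CASAVA 1.7) and deposited read counts and RPKM per gene. The counting tool, the annotation and whether counting used strand are not given in the sources used here, so reads of overlapping genes could be shared (17 of the 40 overlap another RefSeq gene). RPKM equalled count over length and total within 4.99e-07. The paper names a different sequencer from the labels. Large counts carry commas, which were removed before use. The counts were recorded under another unit, and no negative binomial test, such as the paper's DESeq2, was run.

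Symbols matched 21781 of 22048 identifiers. Genes with the rate of 10 reads at median library size in 3 samples and 15 reads in all were tested (13952) with limma 3.58.1 in R 4.3.3, on log2(RPKM + 0.1) with a mean-variance trend, group as the only term and Benjamini-Hochberg adjustment. Fold changes are on that scale and understate those of low genes. The fit was tested on simulated data. Intervals are 95% and rest on 3 samples a group. Genes given in every sample were those with unadjusted p under 0.05 and groups apart, the 5 highest, the 3 largest and 3 smallest fold changes, and those below the filter. From each wider list, up to 4 genes with the lowest p and groups apart were named, and further genes were picked with their values in view. Alternatives were a pseudocount of 1, median-of-ratios scaling, other filters, a replicate block, sample weights, voom and each sample left out. The members and lists were chosen with earlier results of these data known.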

Additional observations from a re-analysis of the deposited data

How the results depend on the processing

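In the settings tried, the median log2 fold change of the 40 genes kept its direction, between -0.29 and -0.17. The count of lysosomal genes lower in HE at an unadjusted p under 0.05, 8 in the fit described, was 13 with sample weights. These gave HE3 a weight of 0.158. The count ranged from 4 to 10 when 1 sample was left out (4 without NC2, 5 without NC1). Among all tested genes 16.01% were lower at that p with sample weights and 5.23% to 13.7% with 1 sample left out. Their share was 11.8% in the fit described. The count higher in HE, 0 in that fit, was 1 with median-of-ratios scaling (Ctsh), 1 without a filter beyond 1 read (Ctss), 2 with sample weights (Ctsh and Gm2a), and 0 to 1 with 1 sample left out. Of all tested genes 9.38%, 6.96%, 13.5% and 4.39% to 9.35% were higher in these settings, in the same order. Genes called across the table, 0 in that fit, were 268 with sample weights and 0 to 103 with 1 sample left out (103 without NC3). With sample weights 2 of the 39 tested list genes, Ctsb and Naglu, had an adjusted p under 0.05 by limma. So did 876 of all 13952 tested genes, so the list did not stand out there. The cause was not tested. Samples of the same number correlated at 0.156, 0.0869 and 0.0603 in their deviations from group means, so the numbers were not taken to pair the samples. A replicate block gave 11 lower and 1 higher (Glb1), beside 14.1% and 8.75% of all tested genes. Every sample correlated best with its own number, a hint from the data and not the design. Of the values for single genes and lists, 12 lost an unadjusted p under 0.05 in a setting, 7 gained it, 4 moved by more than the spread and 256 did neither. Medians near 0 changed sign in some settings: lipid genes from -0.01 to 0.05 (median-of-ratios), 0.07 (without NC2), 0.02 (without HE2) and 0.00 (without HE3); V-ATPase from -0.01 to at most 0.05; nutrient sensing from -0.03 to at most 0.03; cathepsin inhibitors from -0.04 to at most 0.09 (without HE3); and all wider lists from -0.06 to 0.00 (median-of-ratios). Depth limits Ctss and Arsb most.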
